A study of Mus musculus with 120 samples.

Results

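The contactin-associated proteins (Caspr proteins) are neurexin-like cell adhesion molecules of neurons. Each has a large extracellular part of discoidin, laminin G and EGF-like domains, a single membrane span and a short tail that binds cytoskeletal adaptor proteins. They work with contactins, which are anchored to the outer membrane face, and are best known for dividing myelinated axons into nodes, paranodes and juxtaparanodes. The mouse has 7 genes of this family, and all 7 were taken here: Cntnap1, Cntnap2, Cntnap3, Cntnap4, Cntnap5a, Cntnap5b and Cntnap5c. The family was selected on the called windows themselves, so the number of windows in each gene and their differences are given as a description and with no test. Of the 8961 windows of 1 kb that the authors called as differing between genotypes, 17 overlapped or lay within 10 kb of a member, and they fell in 5 of the 7 genes. Over the same 6 lists 26.7% of all 21631 coding genes had a window, and 63.9% of the 990 coding genes of at least 200 kb, a length that 5 of the 7 members reach.

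DNA methylation was profiled by whole-genome bisulfite sequencing in bulk hippocampus and bulk blood of mice labelled Wild-type or APP-nlgf (App-NLGF below) at postnatal week 3, 8 or 24. Each of the 12 groups has 10 libraries, 5 from males and 5 from females, and the 6 comparisons set App-NLGF against wild type within a tissue and week with sex as a covariate. App-NLGF is a knock-in in which the mouse's own App gene carries a humanised amyloid-beta sequence with the Swedish, Iberian and Arctic mutations, so that it is driven by its own promoter in every cell that expresses App, in both tissues. Strain and zygosity are not stated in the labels. For each called window the authors give a signed difference in percentage points and its p-values, raw and adjusted. Values per library, methylation levels and coverage were not analysed here, so no value per animal, no spread and no depth can be given beside a difference. The sign is read from the name of the comparison as App-NLGF minus wild type, and a reversed order would turn every direction given here. In bulk tissue a change within cells and a change in the mix of cells cannot be told apart, and with called windows alone neither tissue could be checked against cell type markers. A window absent from a list either did not differ enough, missed the authors' thresholds or was too thinly covered.

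Cntnap2 is shown first by sequence, at its 2 annotated transcript starts. Its full-length start is at base 45060061 of chromosome 6 and a start far downstream is at base 47244396, both on the plus strand. All 7 Cntnap2 windows lay after the first start. Of these, 6 lay before the downstream start and 1 after it. The 250 bases before each start are given 5′ to 3′ from RefSeq (GRCm38.p6), with the dinucleotide CG, the site at which mammalian DNA is mainly methylated, in capitals.

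Cntnap2 first start, chr6:45059811-45060060: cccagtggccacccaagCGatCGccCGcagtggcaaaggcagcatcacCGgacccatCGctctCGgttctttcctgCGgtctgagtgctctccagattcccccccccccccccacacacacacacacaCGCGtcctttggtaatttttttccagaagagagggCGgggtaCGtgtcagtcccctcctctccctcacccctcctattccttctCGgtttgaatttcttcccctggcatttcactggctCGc

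Cntnap2 downstream start, chr6:47244146-47244395: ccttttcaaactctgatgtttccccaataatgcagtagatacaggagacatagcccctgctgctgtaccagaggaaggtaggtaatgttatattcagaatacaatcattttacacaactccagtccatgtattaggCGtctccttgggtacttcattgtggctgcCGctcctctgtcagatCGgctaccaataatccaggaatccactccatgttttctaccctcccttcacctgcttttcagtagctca

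The first stretch holds 13 CG and the downstream one 3. CG reads the same on both strands. In the RefSeq table of 32619 promoters the median is 6 CG in 250 bases, 31.8% of promoters hold at least 13 and 71.2% hold at least 3. No called window of any list overlapped either stretch. The window nearest to the first start lay 40.9 kb after it, and the one nearest to the downstream start lay 32.6 kb after it. Promoters of Cntnap5b, with 12 CG, and Cntnap3, with 11, were also free of called windows. The share of all promoters that a called window overlaps is not given here. Called windows were sparse, at 3.43 per Mb of the annotated chromosomes over the 6 lists, so most stretches of 250 bases hold none. The other 4 members had no entry in that table.

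Cntnap2 (Caspr2) gathers voltage-gated potassium channels of the Kv1 family at the juxtaparanodes of myelinated axons, together with contactin-2, and its human counterpart is linked to epilepsy, autism and language disorders. It is the third longest coding gene of the mouse, at 2241.3 kb (chromosome 6, 45060061 to 47301393), and held 7 windows in 5 of the 6 lists. Of these 3 were higher and 4 lower in App-NLGF, and the count was 4 in hippocampus and 3 in blood. In hippocampus at week 3 the authors' deposited table lists -17.2 points at 45101001 to 45102000, 40.9 kb into the gene (adjusted p = 0.0849). In the same list the authors' deposited table gives -12.0 points at 45161001 to 45162000, 100.9 kb into the gene (adjusted p = 0.026). A gap of 59 kb separates these lower windows, and both lie in the first 4.5% of the gene body. The authors' deposited table also has, for hippocampus at week 3, 24.1 points at 46586001 to 46587000, 68.1% of the way along the body (adjusted p = 0.0544). This higher window had the largest difference of all 17, and 4.2% of the windows in its list had a larger absolute difference. Cntnap2 thus carried both directions at week 3, with the lower windows near the full-length start and the higher one deep in the gene.

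At later ages and in blood the Cntnap2 windows lay elsewhere. For hippocampus at week 8 the authors' deposited table holds 1 window, -12.3 points at 46642001 to 46643000 (adjusted p = 0.0792). It begins 55 kb after the higher window of week 3 and has the opposite sign. No window of the gene was called in hippocampus at week 24. In blood the authors' deposited table gives 12.2 points at week 3 at 47277001 to 47278000, 98.9% along the body and past the downstream start (adjusted p = 0.0344). The blood window of week 8 stood at -13.2 points in the authors' deposited table, at 45938001 to 45939000 (adjusted p = 0.036). At week 24 the authors' deposited table gives 10.2 points in blood at 46650001 to 46651000 (adjusted p = 0.0759), just inside the authors' limit of 10 points. That window lies 7 kb past the hippocampal window of week 8, with the opposite sign, and these are the closest windows from different lists in the family.

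Long genes can hold more windows, so Cntnap2 was read beside genes of like length. There are 6 other coding genes within 25% of its length, and they held 4 to 8 windows (median 5.5): 2 of these 6 held more than Cntnap2 and 4 held fewer. Among the 59 coding genes of at least 1 Mb the median was 3 windows, 5 genes held more than Cntnap2 and 2 held as many. Per megabase of body and flank, Cntnap2 had 3.1 windows, the median of these 59 genes was 2.54, and 19 of them exceeded Cntnap2. Macrod2, of 1997.7 kb, had 8 windows and Dmd, of 2390.4 kb, had 5. In hippocampus at week 3 alone, 3 coding genes had 3 windows and none had more: Cntnap2, Etl4 and Tenm2, a comparison chosen after the values were seen. Over the 3 hippocampal lists 7 coding genes had at least 4 windows, Cntnap2 among them.

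**Figure D1:**
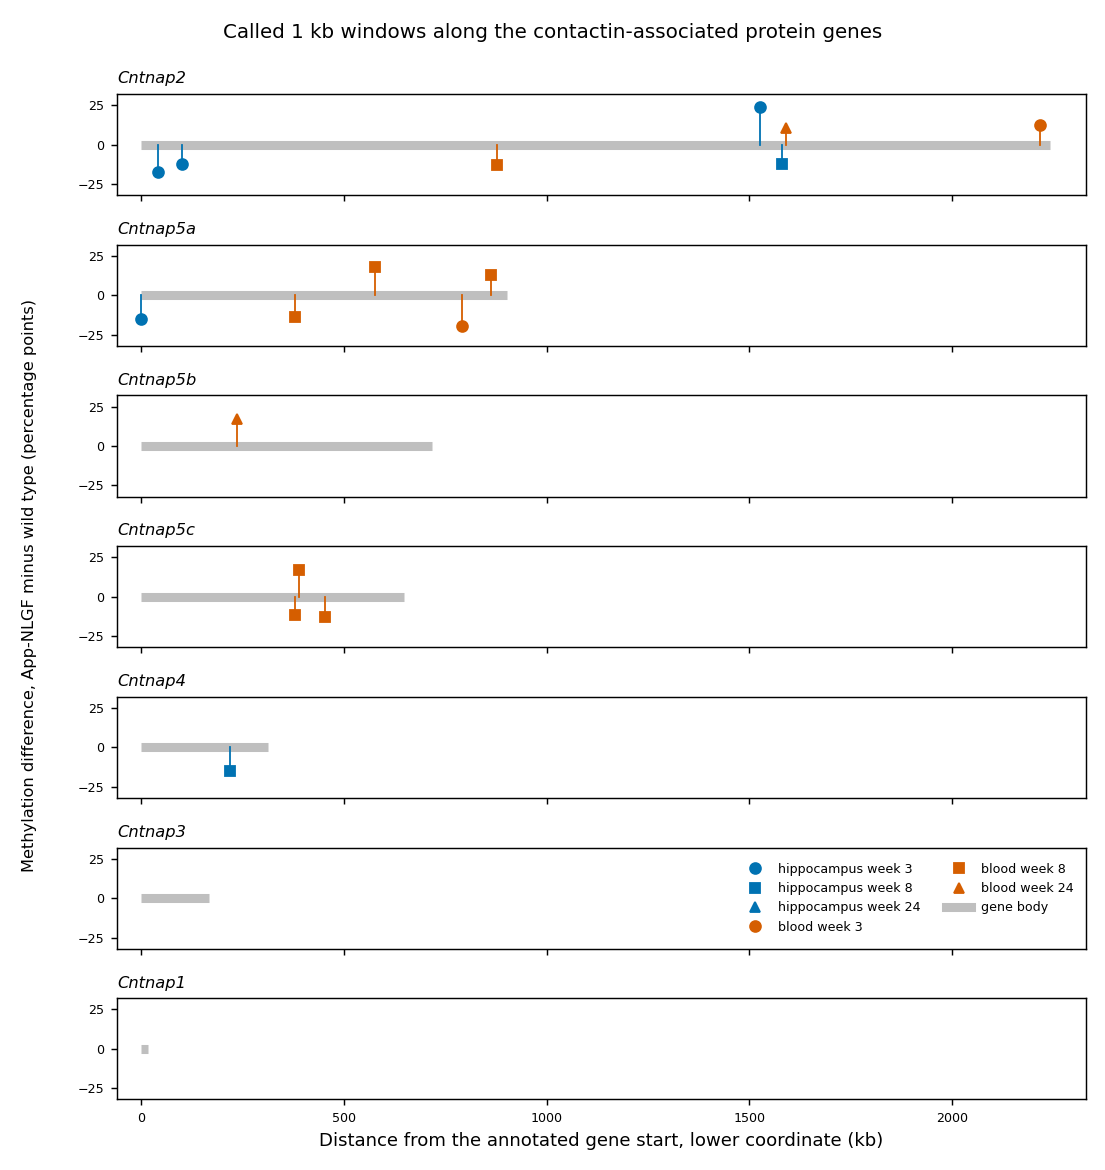
Called windows along the 7 genes, longest first. The x axis is the distance from the lower annotated coordinate in kb, the y axis the methylation difference in percentage points (App-NLGF minus wild type), colour the tissue, symbol the week, and the grey bar the gene body. Cntnap2 has 7 windows of both signs spread over 2241.3 kb, while Cntnap3 and Cntnap1 have none.

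Cntnap1 (Caspr) forms the paranodal junction between axon and myelin loops with contactin-1 and glial neurofascin. It is a short gene of 16.1 kb (chromosome 11, 101174617 to 101190724) and had no window in any list. Of the 2932 other coding genes within 25% of its length, 25% had a window in at least 1 list. Cntnap3, of 166.4 kb (chromosome 13, 64737591 to 64904029), also had none, where 44.8% of 889 genes of like length had at least 1. The absence of a window in these genes is thus the more common outcome for genes of their size.

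Cntnap4 (Caspr4) is found at synapses of inhibitory and dopaminergic neurons, where it affects transmitter release. The gene spans 312.9 kb on chromosome 8 (112569798 to 112882707). It had 1 window, in hippocampus at week 8, which the authors' deposited table gives as -14.7 points at 112789001 to 112790000 (adjusted p = 0.0179). The window lies 70.2% along the body, and 7.8% of its list had a smaller p-value. Among the 418 other coding genes of like length 56.2% had a window, with a median of 1.

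Cntnap5a, Cntnap5b and Cntnap5c are the rodent counterparts of the single human gene CNTNAP5, and their functions are less well described. The treatment of reads that match several members is not given in the sources used here. Cntnap5a is the second longest member, at 902.6 kb on chromosome 1 (115684737 to 116587323), and had 5 windows, 2 higher and 3 lower. Its hippocampal window, called at week 3, is the only one of the 17 that holds an end of a member gene. The authors' deposited table gives it as -14.8 points at 115684001 to 115685000 (adjusted p = 0.0667). The lower annotated coordinate of Cntnap5a falls inside it, with 736 bases of the window before it and 264 from it on. The same window overlaps the end of LOC108167704, a long noncoding RNA gene (115665549 to 115684946), so it cannot be given to Cntnap5a alone. Windows that hold an end of a coding gene made up 2.83% of the hippocampal list of week 3.

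The other 4 windows of Cntnap5a were called in blood. At week 3 the authors' deposited table gives -19.6 points at 116476001 to 116477000 (adjusted p = 0.0545). At week 8 the same gene held 3 windows, and the lower of them stands in the authors' deposited table at -14.0 points at 116063001 to 116064000 (adjusted p = 0.0109). The others were higher, at 18.2 points at 116262001 to 116263000 (adjusted p = 0.0489) and at 13.1 points at 116548001 to 116549000 (adjusted p = 0.0752) in the authors' deposited table. Along the gene the blood windows of week 8 ran lower, higher, higher. The lower window of week 3 lay between the higher ones, so the signs alternate only when both weeks are pooled. Neighbours among these 4 windows were 71 to 213 kb apart. Of 90 other coding genes of like length 92.2% had a window, with a median of 2 and a range of 0 to 10, and 5 had more than Cntnap5a.

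Cntnap5c (648.9 kb, chromosome 17, 57769074 to 58417953) had 3 windows, all in blood at week 8. In the authors' deposited table they are -11.6 points at 58149001 to 58150000 (adjusted p = 0.095), 16.8 points at 58157001 to 58158000 (adjusted p = 0.0759) and -12.9 points at 58222001 to 58223000 (adjusted p = 0.0697). The first and the second are 7 kb apart and have opposite signs, and the first is the member window nearest to the authors' limit on the adjusted p, which is 0.1. Cntnap5b (718.4 kb, chromosome 1, 99772246 to 100490599) had 1 window, in blood at week 24. The authors' deposited table gives it as 16.9 points at 100008001 to 100009000 (adjusted p = 0.0209). Of 120 coding genes of like length 66 had more windows than Cntnap5b, and of 141 of the length of Cntnap5c 15 had more than its 3.

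**Figure D2:**
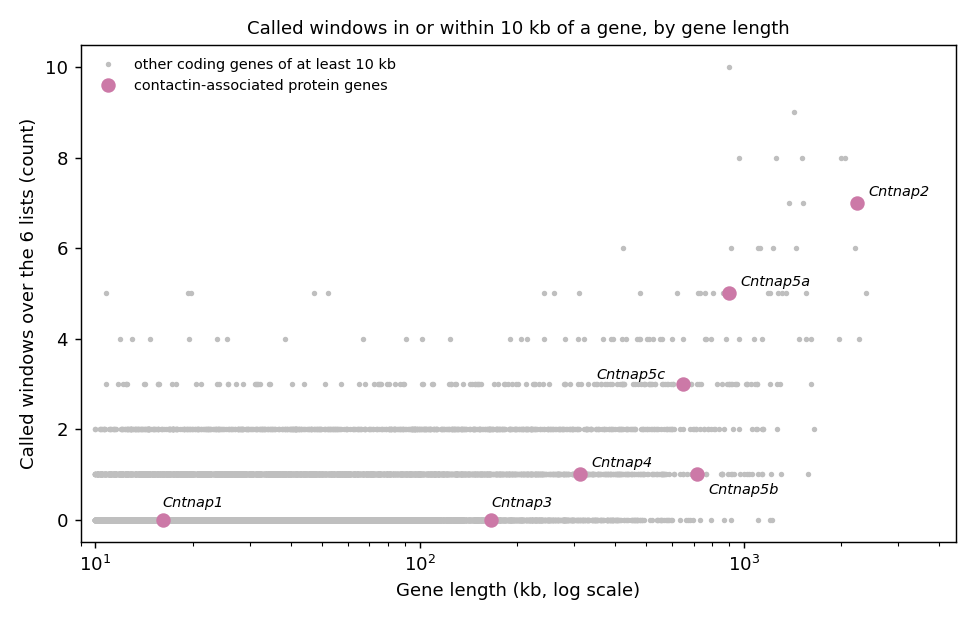
Number of called windows over the 6 lists (y axis, count) against gene length (x axis, kb, log scale) for coding genes of at least 10 kb, each a point, with the 7 family members in colour. Counts rise with length, and Cntnap2 (7 windows) and Cntnap5a (5 windows) sit within the cloud of other long genes.

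By list, the family had 4 windows in hippocampus at week 3, in Cntnap2 and Cntnap5a, 1 higher and 3 lower. There 2 of the 7 members had a window, where 2.6% of all 21631 coding genes did, and 15.2% of the 990 coding genes of at least 200 kb. In hippocampus at week 8 the members with a window were Cntnap2 and Cntnap4, both lower, against 1.74% of all coding genes and 13.1% of the long ones. At week 24 in hippocampus, 0 of 7 members had a window, against 2.43% of all coding genes and 13.7% of the long ones. In blood at week 3 the members were Cntnap2, higher, and Cntnap5a, lower, against 2.79% of all coding genes and 15.8% of the long ones. At week 8 blood had 7 windows in Cntnap2, Cntnap5a and Cntnap5c, against 19.5% of all coding genes and 37.8% of the long ones. At week 24 blood had 1 window each in Cntnap2 and Cntnap5b, both higher, against 1.25% of all coding genes and 8.38% of the long ones. Of the 7 members 5 are longer than 200 kb, so the share among long genes is the nearer background. It is still low for the longest members. Over the 6 lists 63.9% of coding genes of at least 200 kb had a window. Among genes of like length it was 100% for Cntnap2, 92.2% for Cntnap5a, 82.5% for Cntnap5b and 83% for Cntnap5c. No test of the members' counts against any of these shares was made, since the family was chosen on them.

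Per megabase the family had about as many windows as the annotated genome as a whole. Over all 6 lists the members and their flanks, 5.15 Mb in all, had 3.3 windows per Mb. Coding genes of at least 200 kb had 2.8 and the span of the annotated chromosomes had 3.43. In hippocampus at week 3 the family had 0.777 per Mb against 0.383 for long genes, a difference that rests on 4 windows. In blood at week 8 it had 1.36 per Mb against 1.17 for long genes and 1.73 for the whole span.

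**Figure D3:**
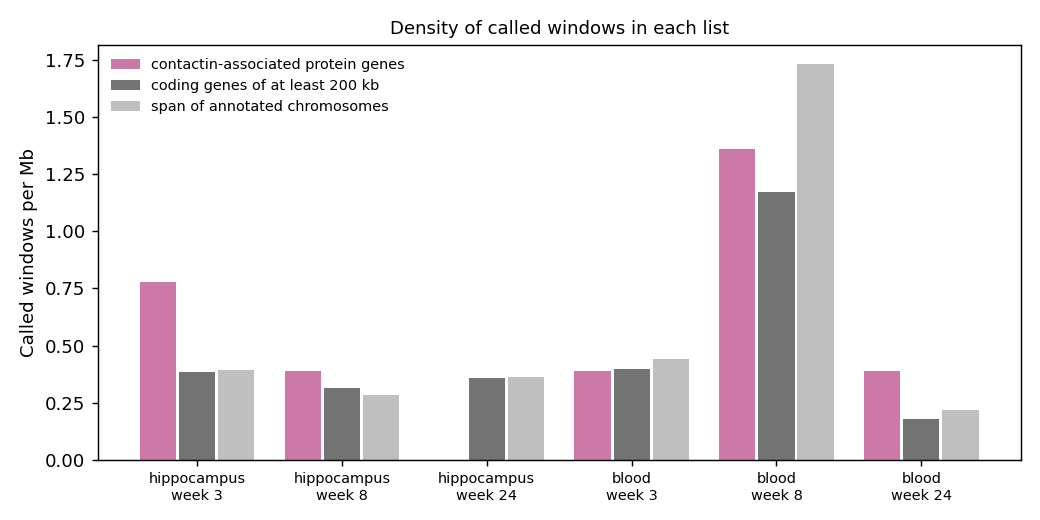
Called windows per Mb (y axis, bars from 0) in each of the 6 lists, for the 7 genes with their 10 kb flanks, for coding genes of at least 200 kb with the same flanks, and for the span of the annotated chromosomes. The family bar is 0.777 in hippocampus at week 3, absent in hippocampus at week 24 and 1.36 in blood at week 8.

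The members' directions were mixed, with 7 windows higher and 10 lower over the 6 lists (41.2% higher, against 33.1% of all called windows). Among the 6 member windows of at least 15 points the balance was the other way, with 4 higher (66.7%). The matching share of all called windows at this cut is not given here, and 33.1% does not stand for it. In blood at week 8 the middle 50% of all lower windows ran from -13.06 to -10.66 points, so most of them miss this cut. Without this cut, 1 of 6 member windows in hippocampus was higher, against 46.5% of all hippocampal windows. In blood 6 of 11 were, against 27.2% of all blood windows. In hippocampus at week 3, 1 of 4 member windows was higher, where 29.5% of the whole list was higher, and at week 8, 0 of 2, where 54.6% was. In blood at week 8, 3 of 7 member windows were higher, where 11.1% of the whole list and 16.3% of the 514 windows at coding genes of at least 200 kb were. The list of blood at week 8 has 26% of its windows on an end of a coding gene (1178 windows, 1175 of them lower), and none of the members' 7 windows was of this kind. The higher windows of this list in the family lay in Cntnap5a (2) and Cntnap5c (1), beside lower ones in the same genes. With so few windows, and with the family chosen on them, this difference was not tested.

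**Figure D4:**
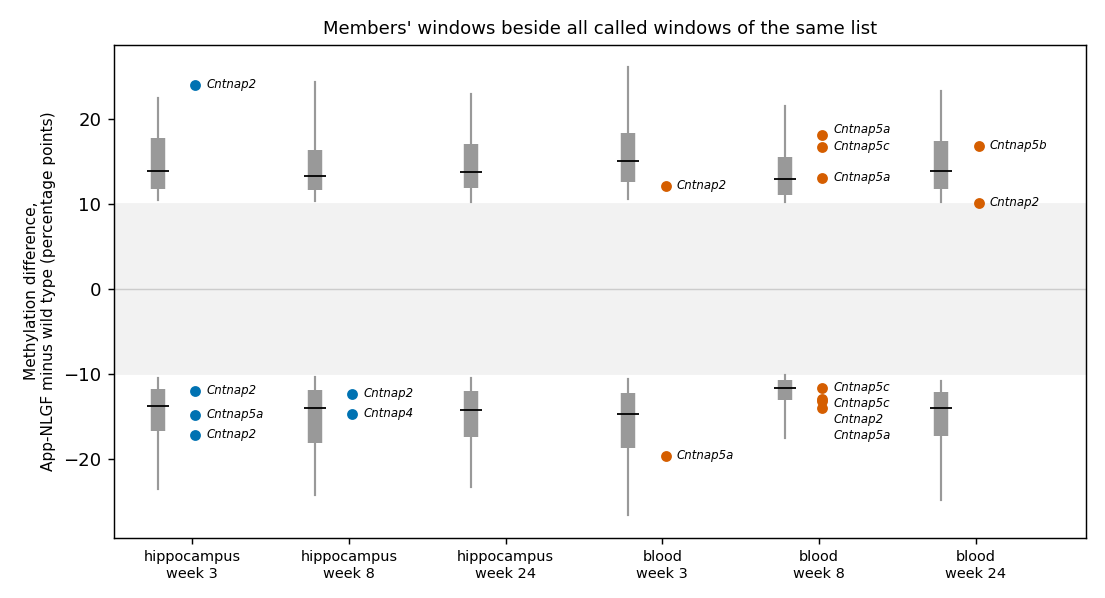
Methylation difference in percentage points (y axis, App-NLGF minus wild type) of each member window, named by gene, beside the whole list of the same tissue and week. Grey boxes span the middle 50% of higher and of lower windows, the lines the 5th to 95th percentile, the black bars the medians, and the shaded band the absolute differences under 10 points, which no list holds. The higher Cntnap2 window of hippocampus at week 3, at 24.1 points, lies above the line of its list.

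No position was called in more than 1 list within the family, and in the whole series 18 of 8942 positions (0.201%) were. Cntnap2 and Cntnap5a had windows in both tissues. Cntnap4 had its 1 window in hippocampus and Cntnap5b its 1 window in blood, so neither could show both tissues. The 3 windows of Cntnap5c all came from blood at week 8, whose list holds 4526 of the 8961 windows. The share of coding genes with windows in only 1 tissue is not given here, so no tissue specificity is read from these counts. The members' median absolute difference, beside that of the whole list, was 16.0 against 13.8 points in hippocampus at week 3 and 13.5 against 13.5 at week 8. In blood it was 15.9 against 14.9 points at week 3, 13.2 against 11.7 at week 8 and 13.5 against 14.0 at week 24, each from 2 to 7 member windows. All 17 windows overlap a gene body, so none was added by the 10 kb flank. Just outside that flank, the authors' deposited table lists -27.9 points in hippocampus at week 8, 15.7 kb before Cntnap5a and inside LOC108167704 (115668001 to 115669000, adjusted p = 0.0625). Past the end of Cntnap2 the authors' deposited table holds -11.1 points in blood at week 3, 22.6 kb away, and 13.9 points in hippocampus at week 8, 25.6 kb away. These 3 windows are outside every count above.

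Partner genes of the family were counted from fixed lists, to be read against the shares over the 6 lists given above (26.7% of all coding genes and 63.9% of those of at least 200 kb had a window, and 33.1% of all windows were higher). The value given for a partner gene is that of its window with the largest absolute difference. A fixed list of 25 genes covered nodes, paranodes and juxtaparanodes, with contactins, Kv1 channel subunits, LGI and ADAM proteins and scaffolds among them. Of these genes 10 had a window, and of their 16 windows 4 were higher. Of these 25 genes 10 are at least 200 kb long. By absolute difference these were led by Cask, a membrane scaffold kinase, at 19.4 points in hippocampus at week 3 in the authors' deposited table. Ank2, a membrane-cytoskeleton adaptor, was at -18.4 points in hippocampus at week 3 in the authors' deposited table. The scaffold gene Dlg1 was at -15.5 points in hippocampus at week 24, and Dlg2, whose product binds Kv1 channels, at -15.3 points in blood at week 3, in the authors' deposited table. Of the 4 windows of Dlg2, 1 was higher. Cntn1, which pairs with Cntnap1 at the paranode, and Cntn2, which pairs with Cntnap2 at the juxtaparanode, had no window in any list.

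Of the 6 contactin genes, 5 of them at least 200 kb long, 4 had a window, and of their 9 windows 4 were higher. In the authors' deposited table Cntn6 was at -21.7 points in blood at week 8, Cntn4 at 17.3 points in blood at week 24, Cntn5 at 15.0 points in hippocampus at week 24 and Cntn3 at -12.2 points in blood at week 8. Signs were mixed within 3 of these genes: Cntn4 had 1 higher and 2 lower windows, Cntn5 had 2 higher and 1 lower, and Cntn6 had 1 of each. Of the 6 neurexin and neuroligin genes, which build the adhesion bridge across synapses, 5 had a window, and 10 of their 11 windows were lower. Of these 11 windows 6, all lower, came from blood at week 8, where 11.1% of the whole list was higher, and 3 of the 6 genes are at least 200 kb long. The authors' deposited table gives Nrxn3 at -31.7 points in blood at week 3, Nlgn1 at -15.8 points in hippocampus at week 24 and Nlgn2 at -13.0 points in blood at week 8. Nrxn3 had 4 windows, of which 1 was higher. Per megabase these lists had 2.44 windows (nodes, paranodes and juxtaparanodes), 2.56 (contactins) and 2.85 (neurexins and neuroligins), beside 3.3 for the family. The transcription factor genes named next had 3.24, close to the family, and none of these differences was tested. Of 3 transcription factor genes known to act on Cntnap2, all at least 200 kb long, 2 had a window: Foxp1 at 12.1 points in hippocampus at week 3 and Tcf4 at -18.5 points in blood at week 8, in the authors' deposited table. Foxp1 also had a lower window, the 3 windows of Tcf4 were all lower, and Foxp2 had none.

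Genes with the most similar pattern were found by summing the absolute differences over 12 counts, the higher and lower windows in each of the 6 lists, over all coding genes. Nearest to Cntnap2 was Auts2, a neurodevelopmental gene of 1105.9 kb with 6 windows, at a distance of 3. Tenm3, Cdh13, Cntn4 and Grm8 followed at a distance of 4. Genes at the same distance were ordered by the closest gene length. All 5 are long genes, from 860.0 kb for Grm8 to 1297.2 kb for Tenm3. For those tied at a distance of 4, this length follows at least in part from that order. For Cntnap5a, the nearest genes, at a distance of 2, included Nrg1 (1084.2 kb), Pde4b (519.9 kb), Abca13 (492.9 kb) and Mindy3 (72.2 kb). For Cntnap5c, Sdhaf3 (83.7 kb), Wnt6 (31.0 kb) and Osr1 (7.1 kb) matched all 12 counts. Nav2 (651.0 kb) and Zfhx3 (682.3 kb) differed by 1. Genes with a pattern like that of a member were thus not always long.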

How the data were processed

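Libraries were made from sheared DNA, bisulfite-converted and amplified, and each tissue had its own extraction kit, per the labels' protocols. The tools named in the submitters' processing notes are methylKit, Bismark, Trim Galore and FastQC, on mm10. For their versions, the coverage filter and the test, nothing is given in the sources used here. The p-values and adjusted p-values are the authors' own, as deposited, and so are the differences in percentage points. In the deposited list every adjusted p is under 0.1 and every absolute difference at least 10 points. The file has 0 columns of values per library among those used, so depth is unknown and no test was run on samples.

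Windows were assigned to gene bodies with a 10 kb flank from the GRCm38.p6 gene table (49554 genes on X and the autosomes, 21631 coding), whose coordinates match mm10 on these chromosomes. The assignment was tested on simulated windows. All 7 symbols matched. The gene table gives no exons, so exon and intron are not separated. Genes of like length are coding genes within 25% of a member's length. The span of the chromosomes runs from the first to the last annotated gene. Upstream sequences came from the RefSeq promoter table, which held 3 members. The planned protein comparison was not made, as protein sequence was not used here. All members and windows are named, with up to 4 genes per partner list by absolute difference and 5 similar genes for members with at least 3 windows, except genes that are not reported here. Members and lists were chosen with earlier results of these data known. Python 3.11.15 with pandas 2.3.3 and numpy 2.4.6 was used. Alternatives changed the flank, the thresholds on the difference and the adjusted p, the merging of neighbouring windows, the distance that counts as shared and the gene background.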

Additional observations from a re-analysis of the deposited data

How the results depend on the processing

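The family's count rests on the authors' thresholds more than on the way windows were given to genes. Counting gene bodies alone moved none of the family's counts by over 1.5 times, and a flank of 50 kb moved 1, hippocampus at week 8, from 2 windows to 4. Merging windows within 10 kb joined none of the family's 17 windows. The Cntnap5c pair in blood at week 8, 7 kb apart with opposite signs, also stayed separate, so this setting altered nothing here. With windows of at least 15 points, 6 of 17 were left (1.17 per Mb): 2 windows in hippocampus at week 3, 0 at week 8, and in blood 1 at week 3, 2 at week 8 and 1 at week 24. Members with a window then numbered 1, 0, 1 and 1 in hippocampus at weeks 3 and 8 and blood at weeks 3 and 24. With an adjusted p under 0.05, 7 windows were left (1.36 per Mb): 1 window in 1 member in each of hippocampus at weeks 3 and 8 and blood at weeks 3 and 24, and 3 windows in blood at week 8. Of all 8961 called windows 55.9% had an adjusted p under 0.05, and in blood at week 8 71.1% did. The shares of all windows left at 15 points or with an adjusted p under 0.01 are not given here. With an adjusted p under 0.01, 0 windows, 0 members and 0 per Mb were left in every list, so no share of higher windows could be given. The share of higher windows, 41.2% of 17, was 66.7% (4 of 6) with windows of at least 15 points, 42.9% with an adjusted p under 0.05, 40% with a flank of 50 kb and 41.2% with gene bodies alone or merged windows. The share of higher windows among all called windows under these stricter thresholds is not given here. Positions shared by windows of different lists rose from 0 to 1 pair when windows within 50 kb counted, and stayed at 0 within 5 kb. Among coding genes of at least 200 kb the share with a window was higher than among all coding genes in all 6 lists (15.2%, 13.1% and 13.7% in hippocampus at weeks 3, 8 and 24, and 15.8%, 37.8% and 8.38% in blood). With gene bodies alone in place of the 10 kb flank, the share of all coding genes was lower in all 6 (1.81%, 1.3% and 1.73% in hippocampus, and 1.9%, 13.1% and 0.901% in blood). Leaving out libraries was not run, as the analysis used called windows and no value per library. No paired analysis was possible because the list holds no value per library. Coverage limits every difference, and it is unknown.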
